A study of Homo sapiens with 24 samples.

Results

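The deposited files list 58051 gene identifiers. From these, 47 genes of xenobiotic metabolism were chosen by name, with earlier results of these data known. They comprise 2 receptors, 8 cytochromes P450, 6 other oxidizing enzymes, 8 aldo-keto, carbonyl and quinone reductases, 4 hydrolases, 5 UDP-glucuronosyltransferases, 10 glutathione S-transferases and 4 sulfo- and methyltransferases. All 47 symbols were matched to 1 identifier each. RNA was sequenced from the human colorectal cancer cell lines HT29, HCT116 and SW480, and for each line 2 wild-type (WT) clones and 2 CTNNB1 knock-out (KO) clones were examined in rounds A and B, which gives 4 libraries per line and genotype and 24 in all. CTNNB1 encodes β-CATENIN, the transcriptional effector of WNT signaling. In the KO clones exon 7 of CTNNB1 was deleted on both alleles with CRISPR/Cas9, which shifts the reading frame, and the labels name no other treatment and no added drug or ligand. The clones were HT29 WT 11 and 40, HT29 KO 28 and 38, HCT116 WT 4 and 6, HCT116 KO 44 and 47, SW480 WT 4 and 5, and SW480 KO 17 and 21. Each KO clone was grown from a single sorted cell, so that a difference between genotypes in 1 line rests on 2 clones against 2 and includes whatever sets single clones apart. The question was how the loss of β-CATENIN changed the expression of these genes within each line, and whether both KO clones of a line changed alike.

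Cells handle foreign compounds and many of their own lipids, steroids and aldehydes in steps. Phase I enzymes such as cytochromes P450, monooxygenases, reductases and esterases expose or create a reactive group, and phase II enzymes join that group to glucuronic acid, glutathione, sulfate or a methyl group, which makes the product easier to export. The intestinal epithelium and the liver are the main sites of these reactions, and ligand-activated receptors such as AHR and NR1I2 (the pregnane X receptor) together with the oxidative stress factor NFE2L2 are known to switch many of the genes on.

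A value is a read count normalised by the authors to 1 size factor per library, and whole reads could be recovered from it. The libraries held 22297049 to 29068378 reads on genes (median 27486225.5). CTNNB1 checked the labels: its values were 256 to 337 in HT29 KO against 5883 to 6113 in WT, 187 to 255 against 10512 to 12800 in HCT116, and 839 to 1312 against 43114 to 50940 in SW480. HCT116 KO 47A stood apart, because 35449 genes had a read in it, against 22620 to 23323 in the other HCT116 libraries, and 9400 genes were detected in that library alone within the line, 7 of the 47 among them. HT29 KO 38B stood apart from KO 38A, because its log2 differences from round A to round B had an SD of 0.923 across genes against 0.358 to 0.527 in the other clones, with a median difference of 0.463 for genes of at most 3230 exonic bases and -0.356 for genes of at least 6413. Markers of intestinal cells and of other cell types moved with genotype too. In HT29 the 11 intestinal epithelium markers summed to 490843 to 784659 in KO and to 325837 to 466928 in WT (4 of 9 tested called, all higher), while the sums overlapped between genotypes in HCT116 and SW480. A sum can hide single genes. KRT20, on this list, was at 9565 to 21316 in HT29 KO against 1542 to 5791 in WT. In HCT116 it was at 0 to 0.983 in KO against 58.2 to 104 in WT. The sum over the 9 absorptive cell markers was higher in KO in all 3 lines without overlap. In HT29 it was 2348 to 4815 against 85.0 to 1409 (none of 3 called by limma, 2 with an unadjusted p under 0.05). It was 2159 to 2723 against 656 to 1498 in HCT116 and 97.9 to 169 against 27.4 to 31.2 in SW480 (1 of 1 called higher in each of the latter). The list did not move as a whole. In SW480 KO, 5 of the 9 had no read in any library. Among them, ALPI and AQP8 had reads in SW480 WT. SI and AQP8 had none in HT29 of either genotype. The 5 enteroendocrine markers summed to 42.8 to 138 in HCT116 KO against 149 to 447 in WT (1 of 2 called, lower) and to 230 to 290 in SW480 KO against 51.9 to 94.0 in WT (2 of 2 called, higher). The 7 goblet cell markers summed to 17401 to 60954 in HT29 KO and to 713 to 2086 in WT (2 of 4 tested called, both higher), and the 5 fibroblast markers to 109 to 1212 and to 13.2 to 24 with DCN at 0 in both. In SW480 the endothelial markers summed to 116 to 234 in KO and to 9.65 to 27.4 in WT. The part of these shifts in the results was not tested.

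The called genes included aldo-keto reductases, oxidases for aldehydes and amines, cytochromes P450 and glutathione S-transferases, in different combinations in the 3 lines. A gene was called where the adjusted p was under 0.05 and the absolute log2 fold change over 1 in limma with Benjamini-Hochberg adjustment over all tested genes. The filter on low values (a value of 10 reached in 4 or more of a line's 8 libraries) was passed by 41 of the 47 genes for HT29, by 31 for HCT116 and by 33 for SW480. In HT29, 6 of the 41 were called, all higher in KO, and 2.30% of all 14921 tested genes were called (1.90% higher, 0.402% lower). In HCT116, 4 of the 31 were called, 3 higher and 1 lower, against 5.06% of 15404 genes (3.17% higher, 1.89% lower). With the round as a block, which pairs the HCT116 libraries, 5 were called, the fifth being CYP4F12 (log2 fold change -1.02 in both fits, adjusted p = 0.0424 with the block and 0.0526 without it in limma). In SW480, 13 of the 33 were called, 11 higher and 2 lower, against 17.5% of 16325 genes (10.7% higher, 6.76% lower). At any fold, an adjusted p under 0.05 was reached by 6 members in HT29 (2.56% of all genes), by 11 in HCT116, 7 higher and 4 lower (14.0%), and by 21 in SW480, 19 higher and 2 lower (48.1%). Hence the called shares of the tested members were 14.6%, 12.9% and 39.4%. HT29 members had a median log2 fold change of 0.79, HCT116 members one of 0.10 and SW480 members one of 0.66, while the medians over all tested genes were 0.03, -0.01 and -0.0042. The filter passes a gene that is high in only 1 genotype, so these shares describe the genes that passed and not the whole set. The 47 genes were chosen with earlier results of these data known. A gap to the shares of all genes is therefore a description and not a test. When both rounds of a clone were averaged, which leaves 2 values a genotype, limma called none of the 41 genes in HT29 (9 had an unadjusted p under 0.05), 2 in HCT116 and 13 in SW480.

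Values of KO and WT libraries did not overlap for 10 of the tested members in HT29 (7 higher and 3 lower in KO, against 8.31% and 4.71% of all genes, 13.0% in all). In HCT116 this held for 13 members (8 higher and 5 lower, against 10.9% and 9.61%, 20.5% in all), and in SW480 for 22 (20 higher and 2 lower, against 25.3% and 20.9%, 46.2% in all).

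**Figure D1:**
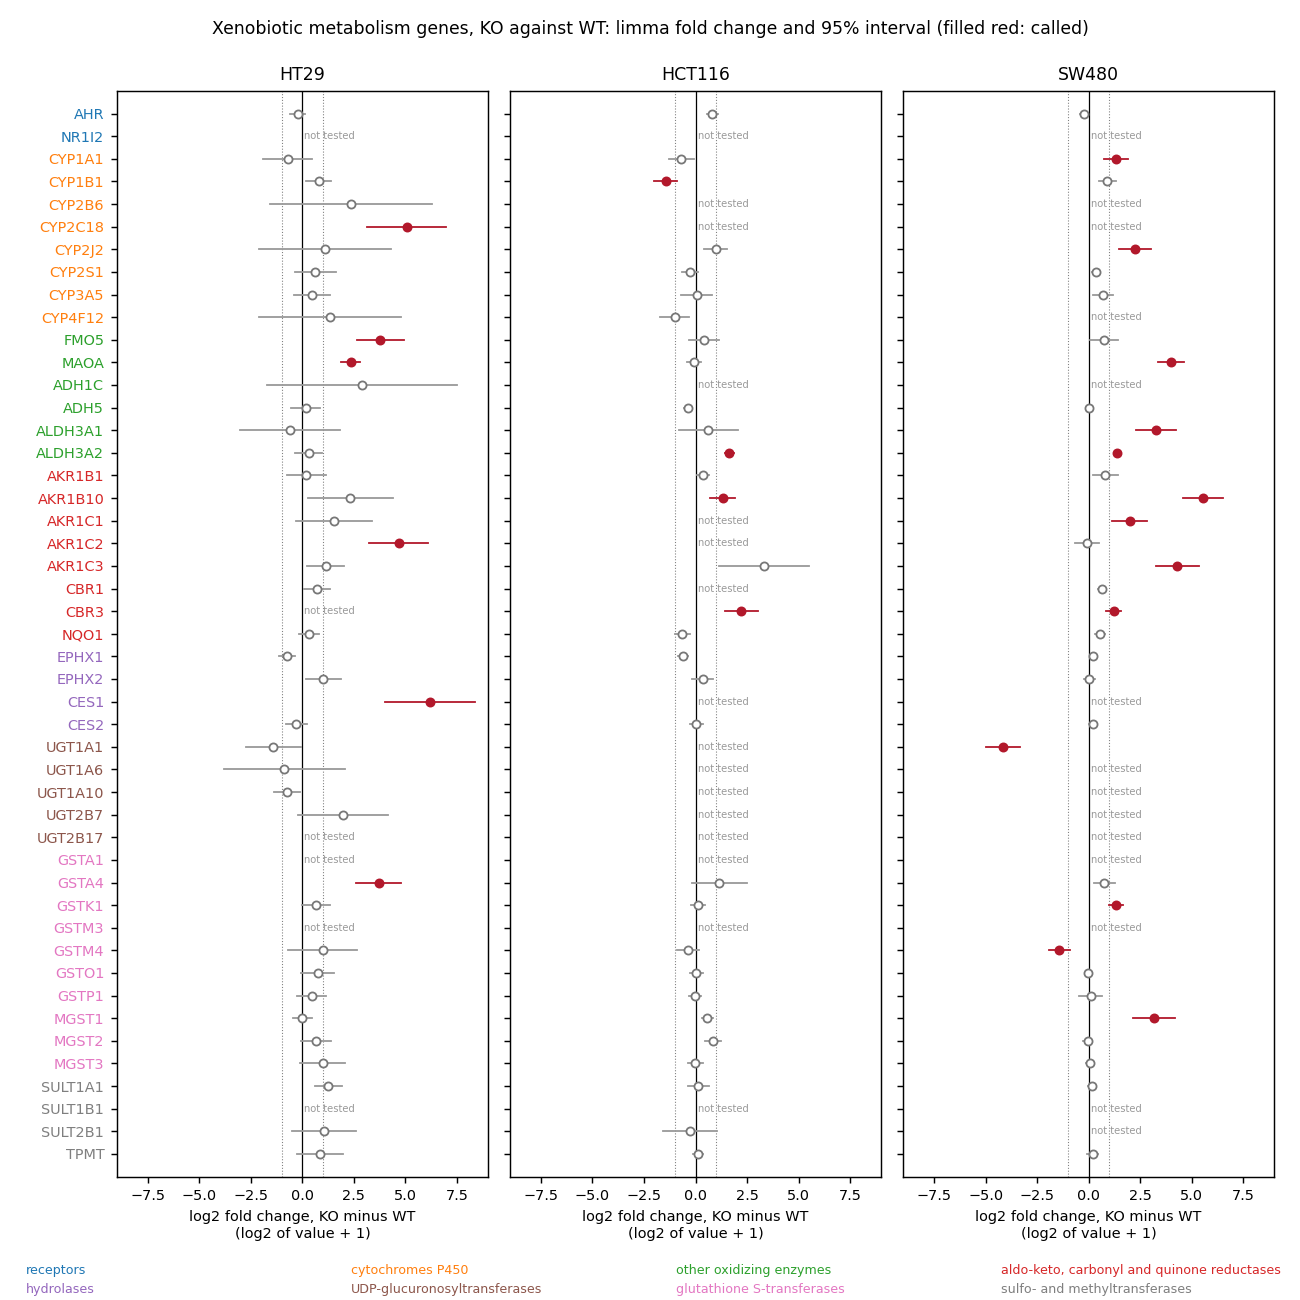
The x axis of each panel is the log2 fold change of KO minus WT on the log2(value + 1) scale for 1 line, and each row is 1 of the 47 genes with its 95% interval, coloured in the name by class. Filled red points mark calls, of which HT29 has 6, HCT116 has 4 and SW480 has 13, and genes that did not pass the filter are marked as not tested.

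No gene was called in all 3 lines. MAOA, ALDH3A2, AKR1B10 and CBR3 were called in 2 lines, 15 genes were called in 1 line and 28 in none. Of the 28 genes tested in all 3 lines, 13 had a positive fold change in each line (AKR1B1, AKR1B10, AKR1C3, ALDH3A2, CYP2J2, CYP3A5, EPHX2, FMO5, GSTA4, GSTK1, MGST1, SULT1A1 and TPMT), none had a negative one in each, and 15 were mixed. The 5 genes tested in no line were GSTA1, GSTM3, NR1I2, SULT1B1 and UGT2B17. These counts by sign carry no test of their own.

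The lines differed strongly before any change. Per length, the highest levels were those of single reductases and glutathione S-transferases, while other genes of both classes were low. On a TPM scale computed from exon lengths, GSTP1, which conjugates glutathione to electrophiles, was at 1684 in HT29 WT, 1221 in HCT116 WT and 1324 in SW480 WT, and NQO1, the quinone reductase, was at 1026, 600.0 and 417 (means of 4 libraries). AKR1B10, a reductase for retinal and lipid aldehydes, was at 623 TPM in HT29 WT but at 2.32 in HCT116 WT and 0.18 in SW480 WT. Its relative AKR1B1, the aldose reductase, was instead highest in HCT116, with 0.73 TPM in HT29 WT, 58.2 in HCT116 WT and 0.60 in SW480 WT. UGT1A10, the intestinal member of the UGT1A locus, was at 254 TPM in HT29 WT and had no read in any WT library of HCT116 or SW480. The carbonyl reductase gene CBR1 was at 85.6 TPM in HT29 WT and 108 in SW480 WT and had no read in HCT116 WT. MGST1, a membrane-bound glutathione transferase, was at 153 and 92.8 TPM in HT29 and HCT116 WT and at 0.55 in SW480 WT. Between WT lines, 17 of 30 tested members were called for HT29 against HCT116 (28.9% of all tested genes), 17 of 32 for HT29 against SW480 (30.2%) and 11 of 29 for HCT116 against SW480 (31.7%).

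**Figure D2:**
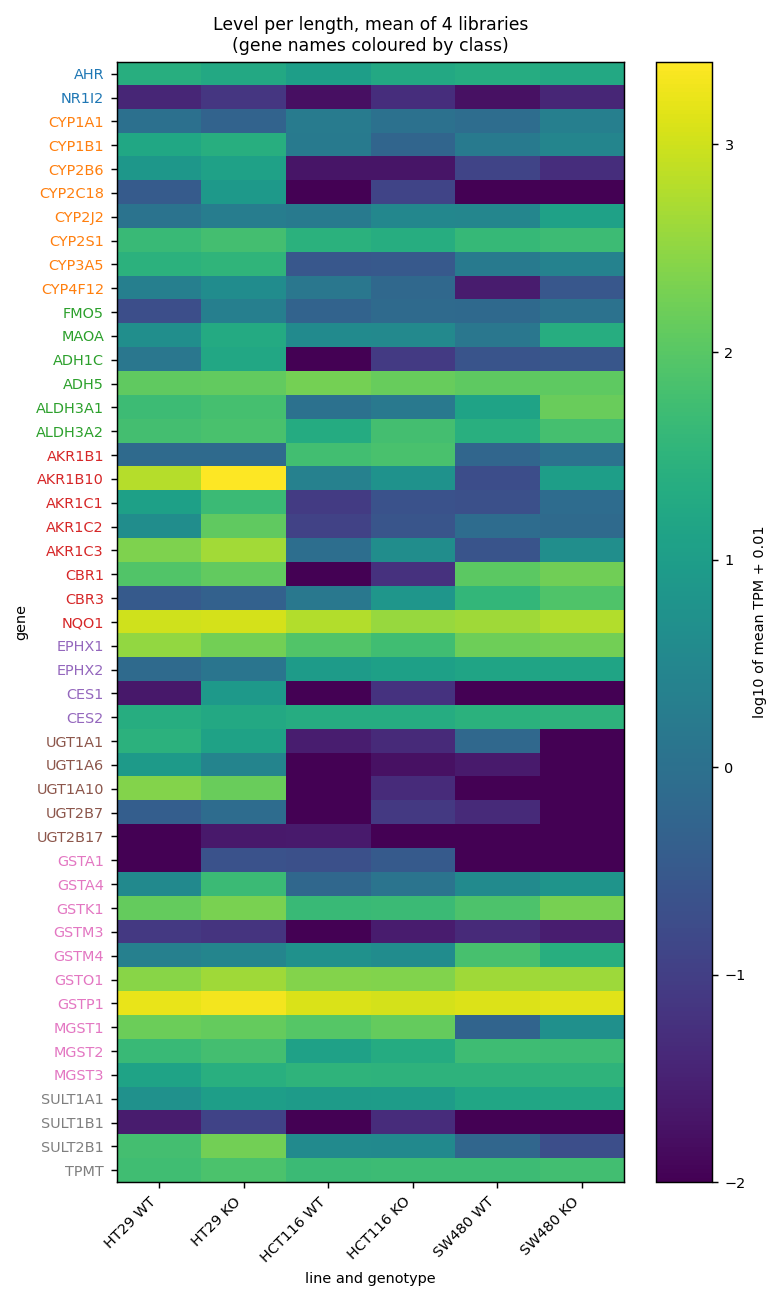
Each cell is the mean level of 1 gene per length in 4 libraries of a line and genotype, as log10 of TPM + 0.01, with genes in rows by class and the 6 groups in columns. GSTP1 and NQO1 are high in every column, whereas AKR1B10, the UGT1A genes, AKR1B1 and MGST1 are high in only some lines.

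All reads on the 47 genes together made up 0.348% to 0.428% of a library in HT29 WT and 0.442% to 0.822% in HT29 KO, so that the KO and WT libraries did not overlap. In HCT116 the shares were 0.159% to 0.229% in WT and 0.173% to 0.202% in KO. In SW480 they were 0.178% to 0.203% in WT and 0.221% to 0.303% in KO, again without overlap. In HT29 the larger part of the difference in group means lay in the reductases, whose share was 0.107% to 0.153% in WT and 0.152% to 0.435% in KO. That part rested mainly on KO 38, with 0.424% and 0.435%, while KO 28 had 0.152% and 0.181%, at or just above the WT range. AKR1B10 alone took 32.2% of the reads on these genes in HT29 KO 38A and 22.3% in KO 38B.

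**Figure D3:**
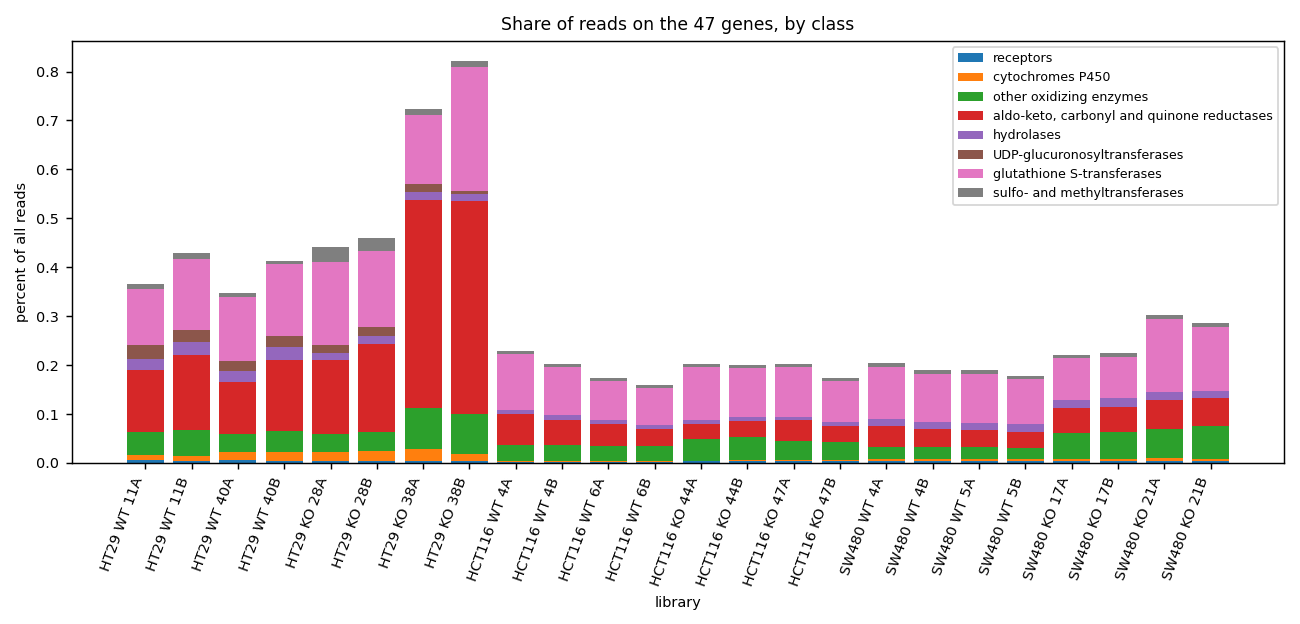
Bars give the percent of all reads of a library that fell on the 47 genes, stacked by class, for the 24 libraries in order of line and genotype. Both libraries of HT29 KO 38 stand highest, at 0.724% and 0.822%, and the HCT116 libraries do not separate by genotype.

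AHR was called in no line, and NR1I2 could not be tested. AHR, the receptor for dioxins and plant indoles, lies on chromosome 7 (GRCh37, 16955983 to 17385776, plus strand). In HT29 its values were 1217, 1104, 987 and 1175 in KO and 1298, 1147, 1590 and 1264 in WT, which overlap (log2 fold change -0.24 ± 0.16 (SE), adjusted p = 0.477 in limma). In HCT116 they were 827, 886, 937 and 1154 in KO and 517, 541, 536 and 544 in WT. All 4 KO libraries of HCT116 were therefore above all 4 WT libraries, with a log2 fold change of 0.82 ± 0.12 (adjusted p = 0.00138 in limma) that stayed below the fold threshold. In SW480 they were 868, 878, 1002 and 900.5 in KO and 1172, 1148, 1033 and 934 in WT (log2 fold change -0.23 ± 0.09, adjusted p = 0.0583 in limma). The effect on AHR differed by -1.05 on the log2 scale for HT29 minus HCT116 (adjusted p = 0.000294) and by 1.05 for HCT116 minus SW480 (adjusted p = 0.000136 in limma). NR1I2 had values of 0, 2.94, 0.949 and 7.78 in HT29 KO, 2.88, 1.01, 0 and 0 in HT29 WT, 0, 0, 3.21 and 2.85 in HCT116 KO, 0, 0, 0.924 and 0 in HCT116 WT, 0, 2.75, 0 and 0.96 in SW480 KO and 1.01, 0, 0 and 0 in SW480 WT. Hence it was at 0 in 13 of the 24 libraries, so that it was not tested.

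Among the cytochromes P450, which insert oxygen into lipophilic compounds, different genes were called in each line. CYP2C18, on chromosome 10 (GRCh37, 96443486 to 96495947), had values of 67.4, 98.8, 227 and 200 in HT29 KO 28A, 28B, 38A and 38B, and of 7.68, 13.2, 0.988 and 0 in WT 11A, 11B, 40A and 40B. All KO libraries were higher than all WT libraries, with a log2 fold change of 5.07 ± 0.85 (adjusted p = 0.0186), and the gene was at 0 in every SW480 library. The call was lost without KO 38A (adjusted p = 0.0603), without WT 40A (0.0619) and without both libraries of KO 38 (0.0626 in limma). In HCT116 the only called P450 was CYP1B1, which fell from 60.9 ± 6.16 in WT to 21.9 ± 4.94 in KO (SD, n = 4 libraries), a log2 fold change of -1.46 ± 0.25 (adjusted p = 0.00315 in limma, and 0.0646 with the rounds of a clone averaged). CYP1B1 was not called in the other two lines, with WT and KO means of 650.2 ± 182 and 1102 ± 229 in HT29 and of 59.2 ± 13.0 and 110.4 ± 6.86 in SW480. The effect on CYP1B1 differed by 2.24 for HT29 minus HCT116 (adjusted p = 0.000111) and by -2.37 for HCT116 minus SW480 (adjusted p = 2.19e-05). In SW480, CYP1A1, the classical AHR target, rose from 17.8 ± 6.34 to 44.8 ± 7.75 (log2 fold change 1.32 ± 0.26, adjusted p = 0.00202 in limma), while its means in KO and WT were 12.6 and 22.4 in HT29 and 22.5 and 36.9 in HCT116. CYP2J2, an epoxygenase of arachidonic acid, rose in SW480 from 53.3 ± 27 to 231 ± 23.8 (log2 fold change 2.25 ± 0.35, adjusted p = 0.000466 in limma). All 5 P450 genes tested in SW480 had an adjusted p under 0.05 and were higher in KO (48.1% of all genes in that line reached this p in either direction), and 2 of them were past the fold threshold (17.5% of all genes). CYP2B6, CYP4F12 and CYP2J2 had log2 fold changes above 1 in HT29 without a call.

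MAOA, the mitochondrial oxidase of serotonin and other amines, lies on the X chromosome (GRCh37, 43514155 to 43606064, plus strand). In HT29 its values were 2020, 1912, 2092 and 1888 in KO and 449, 492, 269 and 387 in WT. In SW480 they were 2519, 2562, 1124 and 1230 in KO and 109, 130, 106 and 85.1 in WT. In both lines every KO library was several times higher than every WT library, with log2 fold changes of 2.34 ± 0.20 (adjusted p = 0.000633) and 4.01 ± 0.28 (adjusted p = 2.19e-06 in limma). Both KO clones of HT29 reached like levels, whereas SW480 KO 17 was 1.11 higher than KO 21 on the log2 scale (adjusted p = 1.07e-05). In HCT116 the values were 341, 285, 326 and 237 in KO and 350, 300, 297 and 302 in WT, which overlap (log2 fold change -0.08, 95% interval -0.41 to 0.25). The effect on MAOA differed between all 3 pairs of lines, by 2.42 for HT29 minus HCT116 (adjusted p = 4.18e-05), by -1.67 for HT29 minus SW480 (adjusted p = 0.000981) and by -4.09 for HCT116 minus SW480 (adjusted p = 8.56e-09).

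ALDH3A2, the fatty aldehyde dehydrogenase of the endoplasmic reticulum, was called in HCT116 and SW480. In HCT116 its values were 6555, 7259, 5831 and 5567 in KO and 2005, 1965, 2091 and 1961 in WT. In SW480 they were 6034, 5980, 6430 and 6571 in KO and 2533, 2399, 2354 and 2294 in WT. The groups were far apart in both lines and tight within each genotype, with log2 fold changes of 1.64 ± 0.10 (adjusted p = 1.97e-06) and 1.38 ± 0.06 (adjusted p = 6.24e-08 in limma). In HT29 they were 5206, 5585, 11362 and 11168 in KO and 6911, 7231, 5423 and 5944 in WT, so that KO 28 lay at the WT level and KO 38 above it. The effect on ALDH3A2 in HT29 differed by -1.35 from that in HCT116 (adjusted p = 0.00213) and by -1.09 from that in SW480 (adjusted p = 0.00653). Its neighbour on chromosome 17, ALDH3A1, which oxidizes aromatic and lipid aldehydes, was called in SW480, where its values were 1579, 2005, 4614 and 6174 in KO and 429, 312, 344 and 230 in WT (log2 fold change 3.26 ± 0.43, adjusted p = 0.000286 in limma). In HT29 the ALDH3A1 values of KO 28 were 133 and 244, below the WT range of 893 to 1994, and those of KO 38 were 3106 and 4582, above it. FMO5, a flavin monooxygenase, rose in HT29 from 7.54 ± 5.60 to 96.5 ± 14.2 (SD, n = 4 libraries, log2 fold change 3.78 ± 0.51, adjusted p = 0.00647 in limma), and its exons overlap those of CHD1L on the other strand, which reads from this kit cannot tell apart. ADH5 and ADH1C were called in no line. Exons of AHR, CYP1B1, ALDH3A1, CBR1, NQO1, EPHX1, CES2, UGT1A6, GSTM3 and MGST2 likewise overlap genes on the other strand. Those of AHR, CYP1B1, CYP2C18, AKR1C3 and CES2 overlap other genes on the same strand.

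The 300 bases around the annotated start of a gene (250 before and 50 after, RefSeq, GRCh38.p14) were searched in both strands for GCGTG, the core of AHR sites, TGACNNNGC, the core of NFE2L2 sites, and CTTTGAT, a TCF/LEF site. RefSeq promoters were matched for 35 of the 47 genes. GCGTG was found in 14 of the 35 (40%) and in 36.33% of all 27305 promoters, TGACNNNGC in 5 (14.29%) and in 13.56%, and CTTTGAT in 2 (5.714%) and in 2.641%. The windows of MAOA, called in HT29 and SW480, of ALDH3A2, called in HCT116 and SW480, and of CYP1A1, called in SW480 only, are shown 5′ to 3′ with matches in capitals. MAOA lies at chrX:43656049-43656348 on the plus strand, ALDH3A2 at chr17:19647886-19648185 on the plus strand and CYP1A1 at chr15:74725479-74725778 on the minus strand.
MAOA: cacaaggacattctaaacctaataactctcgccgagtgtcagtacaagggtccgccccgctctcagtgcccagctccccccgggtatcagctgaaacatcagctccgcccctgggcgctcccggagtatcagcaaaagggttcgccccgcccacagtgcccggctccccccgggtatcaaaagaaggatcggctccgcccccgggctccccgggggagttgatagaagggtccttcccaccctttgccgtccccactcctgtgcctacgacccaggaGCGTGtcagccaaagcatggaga
ALDH3A2: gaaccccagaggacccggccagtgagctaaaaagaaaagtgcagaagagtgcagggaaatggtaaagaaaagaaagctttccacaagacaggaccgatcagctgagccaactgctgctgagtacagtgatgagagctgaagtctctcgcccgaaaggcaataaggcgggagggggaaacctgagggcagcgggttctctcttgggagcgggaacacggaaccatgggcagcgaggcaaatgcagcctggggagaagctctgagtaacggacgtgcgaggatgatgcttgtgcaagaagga
CYP1A1: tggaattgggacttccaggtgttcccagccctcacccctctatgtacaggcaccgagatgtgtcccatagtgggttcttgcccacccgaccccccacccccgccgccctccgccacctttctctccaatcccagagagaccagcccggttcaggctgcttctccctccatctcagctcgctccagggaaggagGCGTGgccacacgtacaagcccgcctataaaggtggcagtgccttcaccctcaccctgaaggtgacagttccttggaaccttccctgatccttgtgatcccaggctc
MAOA and CYP1A1 each held 1 match to GCGTG, and ALDH3A2 held none of the 3 motifs in this window. A match describes the letters only, and sites further away were not searched.

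Of the reductases, AKR1B10 on chromosome 7 (GRCh37, 134212319 to 134226164) was called in HCT116 and SW480. In HCT116 its values were 59.9, 48.0, 89.9 and 69.5 in KO and 36.7, 26.9, 21.3 and 20.0 in WT, and in SW480 they were 139, 121, 114 and 98.9 in KO and 0, 1.84, 3.86 and 1.96 in WT. The groups did not overlap in either line, with log2 fold changes of 1.32 ± 0.28 (adjusted p = 0.0102) and 5.55 ± 0.43 (adjusted p = 2.76e-06 in limma). The call in HCT116 was lost with both libraries of WT 6 left out (log2 fold change 1.03, adjusted p = 0.104) and with the rounds of a clone averaged (adjusted p = 0.115). In HT29, where the gene was among the most abundant of the set, the values were 8692, 11098, 60930 and 58917 in KO and 12205, 13475, 1523 and 2146 in WT. KO 28 thus lay between the WT clones and KO 38 far above both, and the log2 fold change of 2.33 ± 0.92 was not called (adjusted p = 0.254). The effect on AKR1B10 differed by -3.22 for HT29 minus SW480 (adjusted p = 0.0236) and by -4.23 for HCT116 minus SW480 (adjusted p = 0.00371).

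**Figure D4:**
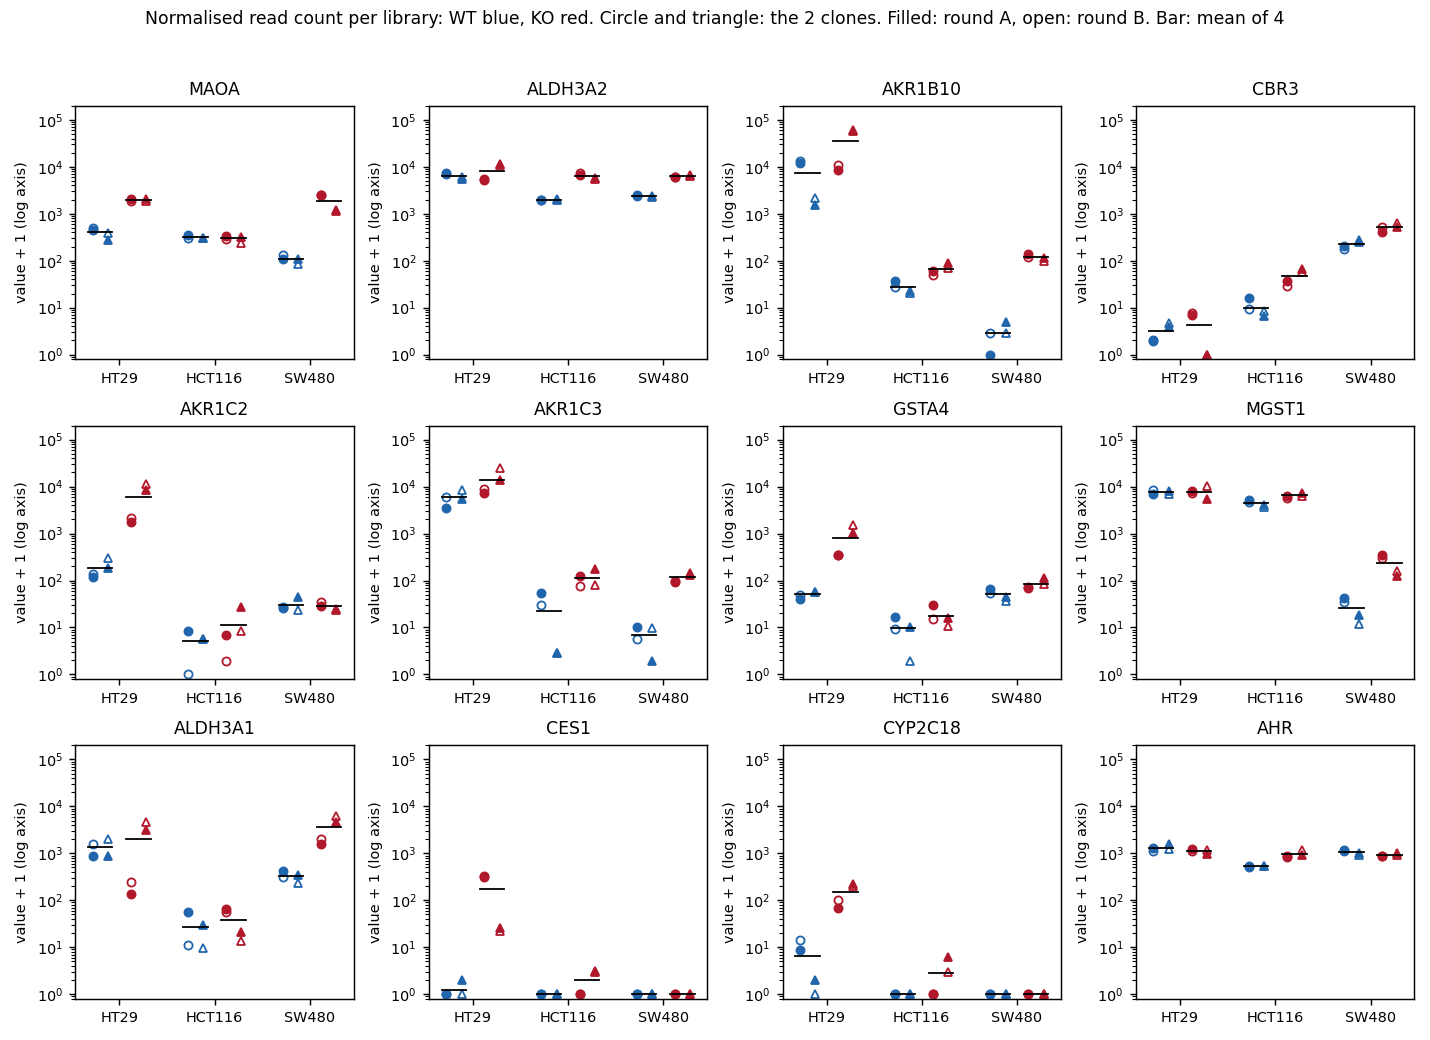
Each panel shows 1 gene, with the normalised read count + 1 on a log axis for the WT (blue) and KO (red) libraries of each line, circles and triangles for the 2 clones, filled symbols for round A and open ones for round B, and a bar at the mean of 4. MAOA separates in HT29 and SW480, ALDH3A2 in HCT116 and SW480, and AKR1B10 spans from 0 in SW480 WT to 60930 in HT29 KO.

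AKR1C1, AKR1C2 and AKR1C3, which reduce steroids, prostaglandins and other ketones, lie side by side on chromosome 10 (GRCh37, 5005445 to 5149878). Their coding sequences are each 969 bases long and so alike that reads may not be told apart everywhere: AKR1C1 and AKR1C2 are 98.04% identical, AKR1C1 and AKR1C3 91.43%. Of all 50-base windows of AKR1C1, 51.63% occur unchanged in AKR1C2, and of 150-base windows 4.634% do. The stretch of coding bases 73 to 162, which holds 10 of the 19 differences between AKR1C1 and AKR1C2, is shown from the GENCODE transcripts (GRCh37), and capitals mark the 19 positions at which the 3 genes are not all the same.
AKR1C1: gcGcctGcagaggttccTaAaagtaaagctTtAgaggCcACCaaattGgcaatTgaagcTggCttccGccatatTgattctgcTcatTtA
AKR1C2: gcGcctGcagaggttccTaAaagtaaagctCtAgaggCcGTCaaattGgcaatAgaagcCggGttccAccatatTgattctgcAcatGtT
AKR1C3: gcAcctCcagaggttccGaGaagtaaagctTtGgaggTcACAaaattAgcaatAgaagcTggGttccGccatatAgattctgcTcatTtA
Per the methods, the reads were paired and 150 bases long, so the share of 150-base windows is the one that applies to whole reads. The split between AKR1C1 and AKR1C2 is uncertain for reads that fit both. How reads that fit several genes were counted is not given in the sources used here. AKR1B1 and AKR1B10 are 75.2% identical and share no window of 50 bases.

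Values of AKR1C2 in HT29 were 1767, 2158, 8496 and 11566 in KO and 117, 135, 187 and 298 in WT. Every KO library exceeded every WT library and KO 38 exceeded KO 28, and the log2 fold change was 4.67 ± 0.62 (adjusted p = 0.00634 in limma, and 0.0567 with both libraries of WT 11 left out). AKR1C1 in HT29 was at 599 and 629 in KO 28, which is within the WT range of 453 to 972, and at 5027 and 7306 in KO 38. AKR1C3 in SW480 had values of 97.8, 91.7, 130 and 141 in KO and 9.10, 4.59, 0.965 and 8.81 in WT (log2 fold change 4.31 ± 0.48, adjusted p = 4.11e-05 in limma). AKR1C1 rose in SW480 from 10.5 ± 4.72 to 43.5 ± 15.4 (log2 fold change 1.99 ± 0.38, adjusted p = 0.00162), whereas AKR1C2 was at 22.1 to 33.9 in KO and 22.5 to 43.4 in WT of that line. For HT29 minus SW480 the effects differed by 4.75 for AKR1C2 (adjusted p = 0.00157) and by -3.19 for AKR1C3 (adjusted p = 0.0417). In HCT116, AKR1C3 was at 76.3 to 171 in KO, and the WT clones differed, with 54.1 and 28.8 in WT 4 and 1.85 and 1.90 in WT 6 (log2 difference 3.82, adjusted p = 0.00175), so that the genotype comparison was not called (adjusted p = 0.0536).

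CBR3, a carbonyl reductase on chromosome 21 (GRCh37, 37507377 to 37518860), had values of 35.4, 28.3, 64.2 and 57.1 in HCT116 KO and 14.7, 8.35, 5.54 and 7.62 in WT. In SW480 it had 413, 510, 530 and 632 in KO and 202, 179, 246 and 272 in WT. Neither line showed an overlap, with log2 fold changes of 2.23 ± 0.37 (adjusted p = 0.0026) and 1.21 ± 0.16 (adjusted p = 0.000143 in limma). With both libraries of WT 4 left out, the value in SW480 was 0.99, below the fold threshold. The exons of CBR3 overlap an antisense gene, and without strand in the kit the reads of both cannot be told apart. NQO1 moved by less than the fold threshold in each line. It fell in HCT116 KO (log2 fold change -0.64 ± 0.16, adjusted p = 0.0222) and rose in SW480 KO (0.53 ± 0.11, adjusted p = 0.00257), and the effects differed by -1.17 for HCT116 minus SW480 (adjusted p = 0.00326 in limma). In SW480, 7 of the 8 reductases had an adjusted p under 0.05, all higher in KO (48.1% of all genes in either direction), and 4 were past the fold threshold (17.5% of all genes).

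CES1, the carboxylesterase that splits ester drugs in the liver, was called in HT29 only. It lies on chromosome 16 (GRCh37, 55836763 to 55867249, minus strand), and its values were 334, 305, 24.7 and 20.7 in HT29 KO 28A, 28B, 38A and 38B. In the 4 WT libraries a single read was found, in WT 40A. The ratio of KO to WT reads was 652, with an exact 95% counting interval of 117 to 25782 that covers counting error only, and limma gave a log2 fold change of 6.19 ± 0.96 (adjusted p = 0.0144). Both KO clones were above WT, and KO 28 was 3.76 higher than KO 38 on the log2 scale (adjusted p = 0.00238). The call was lost without WT 11A (adjusted p = 0.0524), without both libraries of WT 11 (0.0829) and without both of WT 40 (0.0832 in limma). EPHX1, the microsomal epoxide hydrolase, was lower in all 4 HT29 KO libraries (2649 to 4045) than in WT (4690 to 6338) without a call (adjusted p = 0.0687). In HCT116 its fold change was -0.60 ± 0.11 on the log2 scale (adjusted p = 0.00558 in limma), below the fold threshold. EPHX2 and CES2 were called in no line.

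UDP-glucuronosyltransferases were detected at a level that could be tested mainly in HT29. UGT1A1, UGT1A6 and UGT1A10 start at different first exons on chromosome 2 and end in common exons (GRCh37, last base 234681946), and 50.11%, 44.18% and 70.55% of their exonic bases are shared with other UGT1A genes, so that their values are uncertain as separate quantities. In HT29 the values of UGT1A1, the bilirubin transferase, were 510, 671, 386 and 77.8 in KO and 1099, 867, 740 and 758 in WT. Those of UGT1A10 were 3961, 4523, 3216 and 1711 in KO and 5486, 5388, 4885 and 5710 in WT. Both genes were lower in every KO library than in any WT library, but neither was called (log2 fold changes -1.42 ± 0.59 and -0.77 ± 0.28, adjusted p = 0.278 and 0.216 in limma). The lowest value of each, 77.8 and 1711, was that of KO 38B, the library that stood apart from KO 38A. In SW480, UGT1A1 was at 18.2, 11.0, 17.4 and 23.5 in WT and had no read in any KO library, which is at least 6.23-fold lower when set against a floor of 3 reads per library (adjusted p = 7.18e-06 in limma). In HCT116 no gene of this class passed the filter. UGT1A6, UGT1A10 and UGT2B7 had reads only in KO 47A of that line, the library in which many more genes were detected.

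Among the glutathione S-transferases 1 gene was called in HT29, none in HCT116 (2 of 8 had an unadjusted p under 0.05 in limma) and 3 in SW480. GSTA4, which conjugates 4-hydroxynonenal and other lipid peroxidation products, lies on chromosome 6 (GRCh37, 52842746 to 52860102, minus strand). In HT29 its values were 343, 357, 1032 and 1487 in KO and 40.3, 48.7, 56.3 and 55.1 in WT, all KO libraries above all WT libraries, with a log2 fold change of 3.70 ± 0.48 (adjusted p = 0.00534). The effect on GSTA4 was larger in HT29 than in HCT116 by 2.55 (adjusted p = 0.0326) and than in SW480 by 2.94 (adjusted p = 0.0075 in limma). MGST1, on chromosome 12 (GRCh37, 16500076 to 16762193), was called in SW480, with values of 350, 298, 121 and 162 in KO and 40.4, 33.1, 17.4 and 10.8 in WT (log2 fold change 3.19 ± 0.45, adjusted p = 0.000266). KO 17 was above KO 21 and WT 4 above WT 5, by 1.20 and 1.35 on the log2 scale (adjusted p = 0.00275 for both). In the other two lines MGST1 stayed between 3682 and 10089 in all libraries, and the effect differed by -3.19 for HT29 minus SW480 (adjusted p = 2.83e-05) and by -2.62 for HCT116 minus SW480 (adjusted p = 0.000301). GSTK1, found in mitochondria and peroxisomes, rose in SW480 from 2002 ± 165 to 5089 ± 1225 (log2 fold change 1.32 ± 0.15, adjusted p = 5.33e-05), and GSTM4 fell from 2174 ± 452 to 832 ± 279 (log2 fold change -1.42 ± 0.23, adjusted p = 0.000749 in limma). None of the 8 members of this class tested in HCT116 was called, although MGST1 and MGST2 were higher in KO with adjusted p = 0.0102 and 0.00871. GSTP1, the most abundant member per length, was called between genotypes in none of the lines, but KO 17 minus KO 21 in SW480 was -1.01 on the log2 scale (adjusted p = 1.53e-07).

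None of the sulfo- and methyltransferases was called between genotypes. SULT1A1, the phenol sulfotransferase, was at 496 to 835 in HT29 KO and 192 to 436 in WT, without overlap, and missed the threshold (log2 fold change 1.26 ± 0.29, adjusted p = 0.0575). SULT2B1, which sulfates cholesterol, was at 6413 and 5508 in HT29 KO 28 and between 778 and 1372 in the other 6 HT29 libraries. TPMT, which methylates thiopurine drugs, was at 47.9 to 73.4 TPM in the 6 group means. In HT29 its values were 1371 and 1390 in KO 28, 2129 and 2274 in KO 38, 1830 and 1875 in WT 11 and 507 and 479 in WT 40, so that the WT clones differed by 1.91 on the log2 scale (adjusted p = 0.000389 in limma).

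In HT29 the clones of 1 genotype differed from each other in many of these genes. Tests between single clones have only the spread between rounds as their error, so their counts are not on a par with those between genotypes. Between KO 28 and KO 38, 15 of the 41 tested genes were called (12.5% of all genes), and between WT 11 and WT 40, 11 were called (7.58%). CYP2B6, known as a target of xenobiotic receptors, was at 56.3 and 62.6 in KO 28, 762 and 572 in KO 38, 339 and 366 in WT 11 and 1.98 and 5.01 in WT 40. CYP4F12 ran the other way, with 285 and 303 in KO 28, 14.2 and 15.6 in KO 38, 5.76 and 3.04 in WT 11 and 120 and 163 in WT 40. ADH1C was at 330 and 616 in KO 38 and at 36.5 or below in the other clones. Set against both WT clones, KO 28 had 13 called genes (8.54% of all genes) and KO 38 had 20 (13.7%). Both comparisons use the same WT libraries, so they are not independent of each other. KO 28 alone had a call for 4 genes and KO 38 alone for 11. Both clones had a call of like sign for 8 genes, and of unlike sign for ALDH3A1. Among the 41 tested genes, 30 had a fold change of like sign in the 2 clones. Only genes called in both clones are listed next, so the list leaves out those called in 1 clone. The log2 fold changes of KO 28 and KO 38 against WT were 4.38 and 5.76 for CYP2C18, 3.88 and 3.68 for FMO5, 2.33 and 2.35 for MAOA, 1.03 and 3.64 for AKR1B10, 3.50 and 5.84 for AKR1C2, 8.08 and 4.31 for CES1, 2.79 and 4.61 for GSTA4, 1.38 and 1.15 for SULT1A1 and -2.79 and 1.59 for ALDH3A1. The ALDH3A1 value was thus negative for KO 28 and positive for KO 38. Without HT29 KO 28A, 8 genes were called in KO 28.

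**Figure D5:**
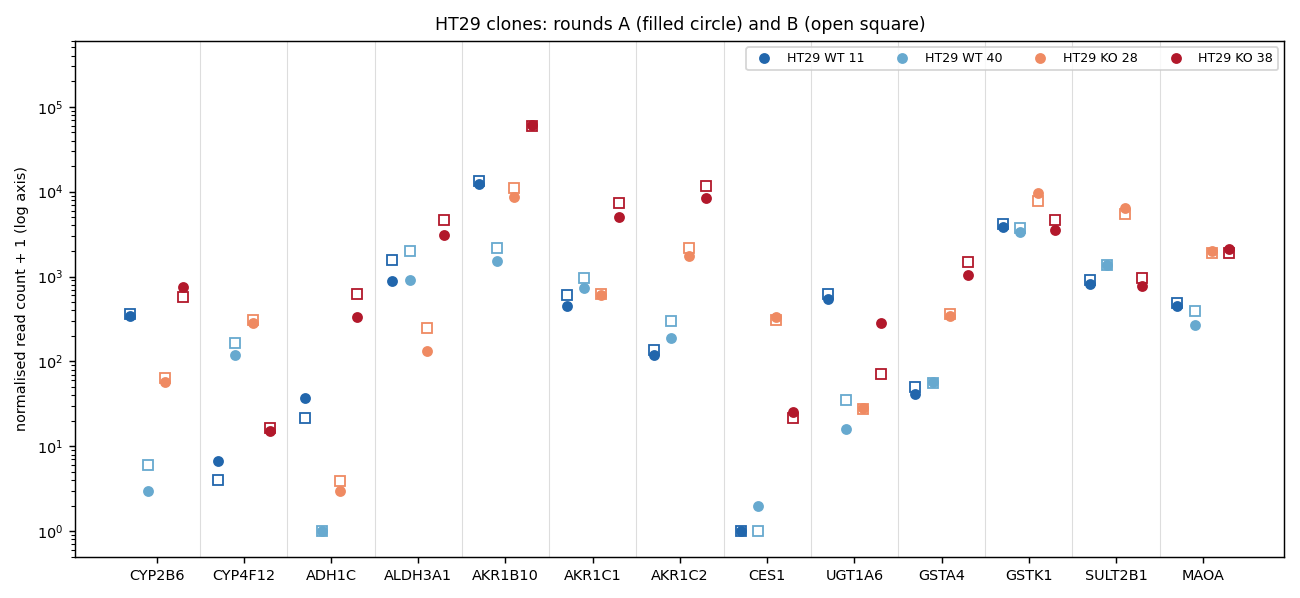
Points give the normalised read count + 1 on a log axis of 13 genes in the 4 HT29 clones, with filled circles for round A and open squares for round B. CYP2B6, CYP4F12, ADH1C, AKR1B10 and UGT1A6 differ between the WT clones, while MAOA, AKR1C2 and GSTA4 are higher in both KO clones than in either WT clone.

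In HCT116, 1 of the 31 tested genes was called between the KO clones (SULT2B1, 3.28% of all genes), with 2 called when the round was a block, none without KO 44B, KO 47A, KO 47B or WT 4A and none in edgeR (12 at an unadjusted p under 0.05), and 1 was called between the WT clones (AKR1C3, 1.44%). KO 44 and KO 47 had 7 and 6 called genes against WT (8.49% and 5.97% of all genes). Of these, 5 were called in both clones, in the same direction. CYP4F12 and MGST2 were called in KO 44 only and CYP2J2 in KO 47 only. The sign was the same in both clones for 18 of the 31 tested genes. The values that follow are for the 5 genes called in both. Set against the WT libraries they share, KO 44 and KO 47 had log2 fold changes of 1.78 and 1.51 for ALDH3A2, 1.05 and 1.60 for AKR1B10, 3.17 and 3.46 for AKR1C3, 1.77 and 2.69 for CBR3 and -1.62 and -1.29 for CYP1B1. In SW480, 4 of the 33 genes were called between the KO clones (MAOA, ALDH3A1, GSTP1 and MGST1, 4.61% of all genes), 2 of them without KO 21A, and 2 between the WT clones (CYP2J2 and MGST1, 1.97%). Against WT, KO 17 had 13 called genes (18.0% of all genes) and KO 21 had 14 (19.7%), again with the WT libraries in common. All 13 were also called in KO 21 in the same direction, and GSTA4 was called in KO 21 only. The sign was the same in both clones for 27 of the 33 tested genes. For genes called in both, the log2 fold changes of KO 17 and KO 21 were 4.57 and 3.45 for MAOA and 2.47 and 4.05 for ALDH3A1. They were 5.69 and 5.41 for AKR1B10, 4.06 and 4.57 for AKR1C3 and 3.79 and 2.59 for MGST1.

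Tests of the difference in effect between lines called 7 of 30 members for HT29 against HCT116 (5.11% of all genes), 13 of 32 for HT29 against SW480 (9.53%) and 8 of 29 for HCT116 against SW480 (8.10%). The first number fell to 4 without HCT116 KO 47B. Fits with clones averaged, random or left out were not made for these tests.

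Further genes of the same pathways can be read against the 2.30%, 5.06% and 17.5% of all tested genes that were called in the same 3 comparisons. These lists too were chosen with earlier results of these data known. Of 47 other phase I genes, 31, 27 and 24 were tested in HT29, HCT116 and SW480, and 1, 4 and 4 were called (3.23%, 14.8% and 16.7% of those tested). DHRS3, a retinal reductase, was called higher in all 3 lines, with log2 fold changes of 1.07, 3.43 and 3.07. The aldehyde oxidase AOX1 was called higher in HCT116 (2.33) and SW480 (4.25). Of 38 other phase II genes, 13, 12 and 15 were tested, and 1, 3 and 6 were called (7.69%, 25% and 40%). PAPSS2, which makes the sulfate donor, was called higher in HCT116 (1.22) and SW480 (3.19), and HNMT, the histamine methyltransferase, in HT29 (1.16) and SW480 (7.35). Of 22 other regulators, none of the 19 tested was called in HT29 by limma (4 had an unadjusted p under 0.05), 1 of 19 in HCT116 and 3 of 18 in SW480, with the glucocorticoid receptor NR3C1 higher in HCT116 (1.81) and SW480 (1.52). Of the 8 AHR targets, which include CYP1A1 and CYP1B1, none of the 7 tested was called in HT29 by limma (2 with an unadjusted p under 0.05), 1 of 6 was called lower in HCT116 and 2 of 6 higher in SW480. TIPARP, also on this list, was not called. In HT29 its KO values were all below its WT values (1359 to 2477 against 2584 to 3066). SW480 showed the same (2507 to 2741 against 3031 to 3514). This held for 4.71% and 20.9% of all tested genes in these lines. AHRR, also listed, was at 105 to 234 in SW480 KO and 164 to 204 in WT. Of the NFE2L2 targets outside the 47 genes, none of 19 was called in HT29 (2 with an unadjusted p under 0.05), 2 of 19 in HCT116 in opposite directions, and 5 of 18 in SW480, all higher. FTH1, the ferritin heavy chain, was the 1 gene of that list called in 2 lines, with log2 fold changes of 1.68 in HCT116 and 1.36 in SW480. Of the 8 NR1I2 targets, 2 of the 3 tested in SW480 were called, both lower (UGT1A1 and ABCB1), and none of 5 in HT29 and of 2 in HCT116 was called by limma, with 1 unadjusted p under 0.05 in each.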

How the data were processed

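Total RNA of 24 cultures of colorectal cancer cell lines was sequenced at Macrogen Europe. Per the labels and methods, the authors prepared TruSeq v2 libraries, which do not mark strand, aligned to GRCh37 with STAR 2.7.5b, counted with featureCounts 2.0.1 and normalised with DESeq2 (Galaxy 2.11.40.6). The values deposited by the authors are signal, that is, counts per gene after division by the size factor of each library. Reads were recovered by dividing by the value of 1 read, and 100% of values came out whole within 0.01. Per-line tables of the authors' fold changes, p-values and means were not used.

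Genes that reached 10 in 4 or more of a line's 8 libraries entered tests with limma 3.58.1 (trend, robust) on log2(value + 1), which understates the change of low genes, in R 4.3.3. For differences between lines a gene had to pass in both lines. A call needed an adjusted p (Benjamini-Hochberg) under 0.05 and an absolute log2 fold change over 1. TPM used exon lengths of GENCODE lifted to GRCh37. Alternatives were DESeq2 1.42.0 and edgeR 4.0.16 (TMM) on recovered reads, other filters, pseudocounts of 0.1 and 5, the round as a block, clones averaged or random, and libraries and clones left out. Those with clones averaged, random or left out were run only for KO against WT within a line. The tests were also run on simulated counts with known changes, drawn independently for each library with the same dispersion for every gene. These counts held no differences between clones, so they cannot check how the tests treat such differences. On all genes edgeR called 295, 800 and 2864 in HT29, HCT116 and SW480, and DESeq2 780, 859 and 2870.

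The study ran 2 rounds, called independent, and the letter A or B names the round. Whether rounds pair libraries was checked by correlating the A minus B differences of clones across genes. In HCT116 all 6 pairs of clones correlated (0.182 to 0.374). In HT29 2 of 6 exceeded 0.1 (range -0.309 to 0.424), and in SW480 1 of 6 did (range -0.0411 to 0.127). The main fit held no clone term and took the 4 libraries of a genotype as independent, although they are 2 clones in 2 rounds. Its p-values mix the spread of clones and of rounds, and can be too small for a difference between genotypes.

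The 47 genes, their classes and the other lists were chosen with earlier results of these data known. Values of every library are given for genes called in 2 or more lines, for the 5 called genes per line with the largest fold change and a mean of at least 100, and for AHR and NR1I2. From the other lists, genes called in 2 or more lines are named, at most 3 a list. The other gene values were added for genes whose clones or lines differ. Of 181 list symbols outside the 47, 4 were not matched and are not analysed here.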

Additional observations from a re-analysis of the deposited data

Results flagged for a closer look

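Between lines, the effect of KO was compared by a test of the difference itself, and 28 differences passed. These tests counted the rounds of a clone as separate libraries. Fits with clones averaged, random or left out were not made for them. A difference can also average clones that moved apart, as for ALDH3A1, which was lower in HT29 KO 28 and higher in KO 38. Differences are given on the log2 scale as the first line minus the second, with adjusted p from limma. For HT29 minus HCT116 they were -1.05 for AHR (adjusted p = 0.000294), 2.24 for CYP1B1 (0.000111), 3.36 for FMO5 (0.000483), 2.42 for MAOA (4.18e-05), -1.35 for ALDH3A2 (0.00213), 2.55 for GSTA4 (0.0326) and 1.13 for SULT1A1 (0.0367). For HT29 minus SW480 they were -2.04 for CYP1A1 (0.01), 3.03 for FMO5 (0.000599), -1.67 for MAOA (0.000981), -3.86 for ALDH3A1 (0.0377), -1.09 for ALDH3A2 (0.00653), -3.22 for AKR1B10 (0.0236), 4.75 for AKR1C2 (0.00157), -3.19 for AKR1C3 (0.0417), 2.75 for UGT1A1 (0.0225), 2.94 for GSTA4 (0.0075), 2.40 for GSTM4 (0.026), -3.19 for MGST1 (2.83e-05) and 1.10 for SULT1A1 (0.0259). For HCT116 minus SW480 they were 1.05 for AHR (0.000136), -2.0 for CYP1A1 (0.0125), -2.37 for CYP1B1 (2.19e-05), -4.09 for MAOA (8.56e-09), -4.23 for AKR1B10 (0.00371), -1.17 for NQO1 (0.00326), -1.20 for GSTK1 (0.0147) and -2.62 for MGST1 (0.000301).

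In 6 of 98 groups of 4 libraries, 1 library lay far from the other 3, and chance gives about 1 in 20 such groups. FMO5 was at 12.1 in SW480 WT 4A against 29.4 to 30.3 in the other WT libraries. MAOA was at 350 in HCT116 WT 4A against 297 to 302. CYP1B1 was at 761 in HT29 KO 28A against 1177 to 1257, and at 378 in HT29 WT 40A against 716 to 768. CYP1A1 was at 27.3 in SW480 WT 4A against 14.5 to 14.7, and CYP2J2 was at 22.8 in HCT116 WT 6B against 32.1 to 32.5. Their causes were not tested.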

How the results depend on the processing

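Of 475 recomputed fold changes of called members, 457 kept their direction and call, 18 kept their direction but lost the call, and none turned. The 63 of AHR, which was called in no line, kept their direction and gave no call. Of 345 recomputed counts, 331 stayed within 1.5 times. With both rounds of a clone averaged, the count was 0 in HT29 (limma, 9 of 41 members at an unadjusted p under 0.05, against 8 calls by DESeq2 and 6 by edgeR on libraries), 2 in HCT116 and 13 in SW480. A filter of 10 in every library, which tested 32 members, left 3 calls in HT29. For WT HT29 against WT HCT116, no filter on low values, which tested all 47 members, gave 26 calls. Between the KO clones of HCT116, edgeR called 0 members (12 at an unadjusted p under 0.05) and no filter gave 2.

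Rounds paired the HCT116 libraries. The replicate block gave 6, 5 and 13 members called between KO and WT in HT29, HCT116 and SW480, and 2 between the KO clones of HCT116 against 1 without it. In HT29 and SW480 only some pairs of clones correlated by round (-0.309 to 0.424 and -0.0411 to 0.127), so the rounds did not shift all clones alike.

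Leaving out libraries or clones gave 5 to 9 calls in HT29, 3 to 6 in HCT116 and 13 to 15 in SW480. It gave 0 to 1 calls between the KO clones of HCT116, 2 to 4 between those of SW480 (2 without KO 21A), 8 to 14 for HT29 KO 28 against WT (8 without KO 28A), and 4 to 8 for effects that differ between HT29 and HCT116 (4 without HCT116 KO 47B). CYP2C18 in HT29 also lost its call with a pseudocount of 0.1 (adjusted p = 0.0613 in limma). The causes were not tested. Depth limits genes at a few reads, such as NR1I2 and GSTA1, and 2 clones per genotype limit every comparison.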
